A study of Nicotiana tabacum with 6 samples.

Results

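Terpene synthases are the enzymes that turn prenyl diphosphates into the carbon skeletons of monoterpenes, sesquiterpenes and diterpenes. The metal-binding domain holds the active site that ionizes the substrate, and many plant members also carry an N-terminal domain with an alpha-alpha toroid fold. In tobacco leaves such enzymes start the synthesis of the diterpenes secreted by glandular trichomes and of the sesquiterpene defence compounds, and cytochrome P450 enzymes commonly oxidize their products. A member was taken to be any row of the deposited table whose domain text held "Terpene synthase" but not "Squalene cyclase" and whose value was at least 1 FPKM in at least 3 of the 6 libraries. FPKM are fragments scaled to transcript length and to the mapped fragments of the library, so levels can be compared between genes. Of 69500 gene models, 156 carried the domain text and 34 of these met the level rule.

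The libraries came from leaves of Nicotiana tabacum, 3 from GDH64, a flue-cured tobacco line, and 3 from MuGDH64, a stable aphid-resistant mutant that was bred from GDH64 after cobalt gamma irradiation and is spelled MuGHD64 in the design text. MuGDH64 is a single mutant line, and leaf punches of 3 plants were mixed in each plot sample. Field plots of both lines were sampled at several dates in separate seasons, and the labels tie no library to a date, season or plot. The p values therefore measure the spread between these libraries only. NtCYC, a diterpene synthesis gene, is given as mutated in the series title; the domain texts name no product, so no model was taken as NtCYC, and whether it is among the models described here is not known.

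Summed FPKM over all rows lay between 728572 and 756316 in GDH64 and between 634425 and 719776 in MuGDH64, and the read depth is unknown. Limma on log2(FPKM + 1) was run on all 32340 gene models that met the same level rule, with Benjamini-Hochberg adjustment over all of them and a threshold of 0.05. A change below is that log2 difference, MuGDH64 minus GDH64, and a fold is the ratio of the mean FPKM of the lines. The median change of all tested genes was -0.18, and 712 genes were called higher and 3151 lower, against 1433 and 1671 after quantile normalization. Members of the leaf mesophyll families (light-harvesting, photosystem and small Rubisco subunit domains) summed to between 41784 and 44523 FPKM in GDH64 and between 41145 and 45617 in MuGDH64, and 54 of the 266 rows of that list were at 0 in every library. In these bulk samples, fewer cells of a type and less RNA per cell cannot be told apart.

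Of the 156 models with the domain text, 72 were listed at 0 in all 6 libraries and 50 had some signal but did not reach the level rule. Both domains were named for 76 models, and 26 of these were members. Of the 56 models with the metal-binding domain alone 4 were members, and of the 24 with the N-terminal domain alone 4 were members. The models closest to the level rule on the inside were Nitab4.5_0001833g0060, Nitab4.5_0016435g0010 and Nitab4.5_0002807g0040, whose libraries of rank 3 stood at 1.18, 1.33 and 1.37 FPKM. Just outside it were Nitab4.5_0002505g0010, Nitab4.5_0006116g0050 and Nitab4.5_0006456g0040, whose libraries of rank 3 stood at 0.98, 0.78 and 0.61 FPKM.

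Most members were weakly expressed, and 21 of 34 averaged under 5 FPKM over the 6 libraries. The most abundant was Nitab4.5_0008024g0010, with 48.69, 50.74 and 40.67 FPKM in GDH64 and 48.2, 46.5 and 43.77 FPKM in MuGDH64. The lines overlapped, and its change was -0.01 with a 95% interval from -0.26 to 0.23 (limma adjusted p = 0.95). Among the other abundant members, Nitab4.5_0002418g0010 held 16.0 ± 0.325 FPKM in GDH64 and 17.8 ± 1.77 in MuGDH64 (mean ± SD, n = 3 libraries per line, as below), with an interval of the change from -0.09 to 0.39. Nitab4.5_0001351g0070, which has the metal-binding domain alone, held 13.4 ± 2.02 and 13.8 ± 1.98 FPKM, with an interval from -0.28 to 0.37. Nitab4.5_0004163g0010 held 13.4 ± 4.56 and 9.55 ± 0.531 FPKM, with an interval from -0.86 to 0.04.

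**Figure D1:**
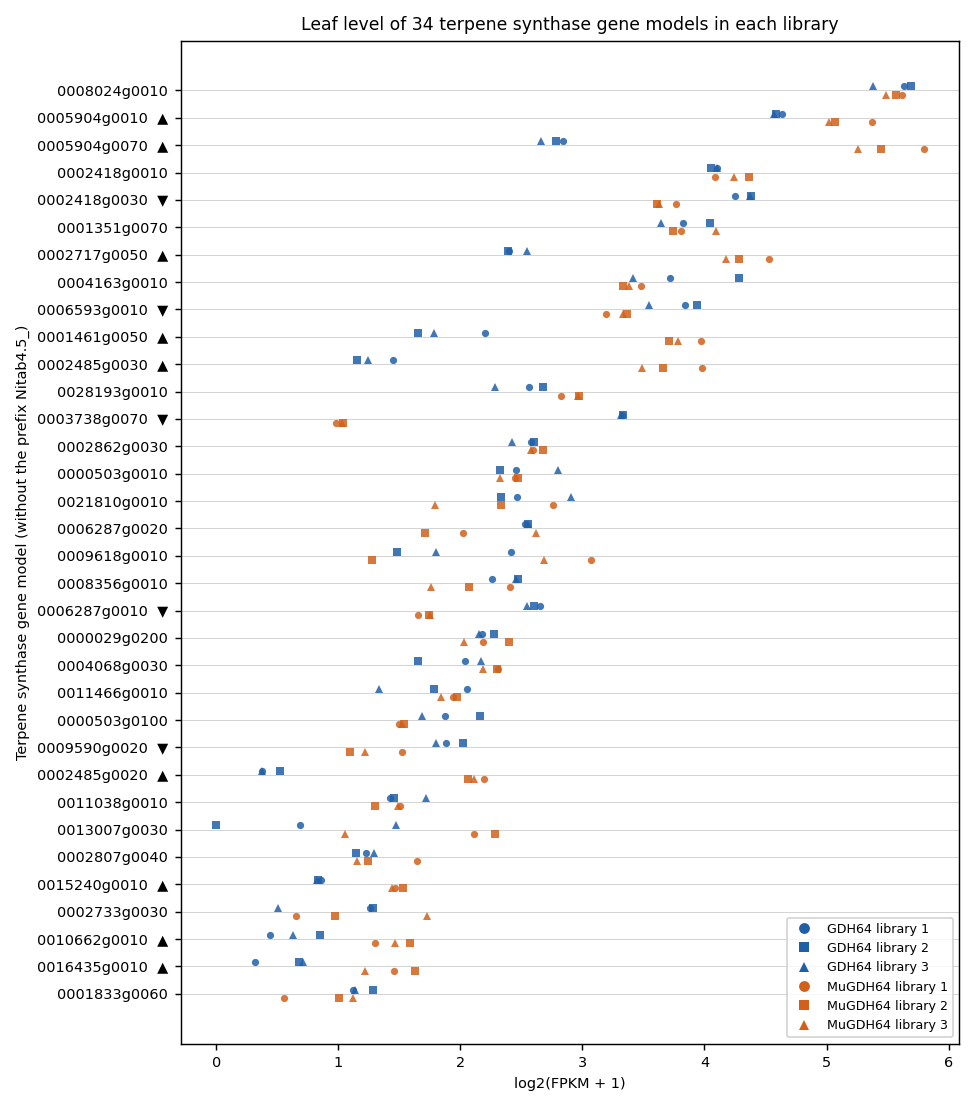
Level of each of the 34 members in each library, as log2(FPKM + 1), ordered by the mean over 6 libraries; blue points are GDH64, orange points are MuGDH64, shapes give the library number, and triangles beside a name mark members past the limma threshold (up, higher in MuGDH64; down, lower). Nitab4.5_0008024g0010 overlaps between the lines at the top, while Nitab4.5_0005904g0070 moves from the middle of the range to near the top and Nitab4.5_0003738g0070 from the middle to near the bottom.

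MuGDH64 held more terpene synthase transcript as a sum, and the gain lay in a few members. The 34 members together had 230.33, 238.35 and 214.0 FPKM in the GDH64 libraries and 325.05, 288.58 and 278.95 FPKM in the MuGDH64 libraries. Every MuGDH64 library lay above every GDH64 library, whereas the sum over all genes lay lower in each MuGDH64 library than in each GDH64 library. As a share of all FPKM the members went from 0.0305% ± 0.00108 to 0.0433% ± 0.00219. The 20 members not past the threshold summed to 139 ± 9.82 FPKM in GDH64 and 139 ± 3.99 in MuGDH64. The 9 members called higher went from 39.8 ± 1.36 to 133 ± 20.1 FPKM and the 5 called lower from 48.8 ± 2.38 to 25.3 ± 0.39 FPKM. The groups were formed by the calls on these same libraries, so an even sum of the uncalled members is partly fixed by that split. These sums describe the members and were not tested.

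**Figure D2:**
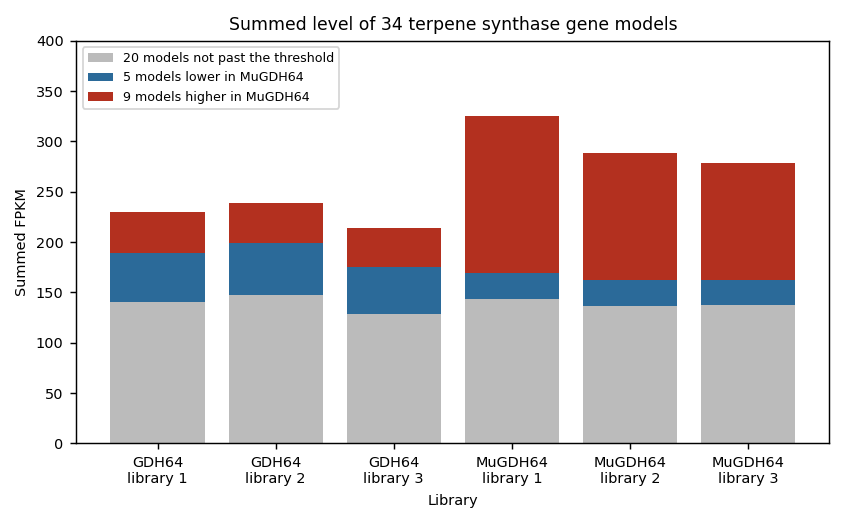
Summed FPKM of the 34 members in each library, stacked by the 20 members not past the threshold, the 5 lower and the 9 higher in MuGDH64. The grey part stays near 139 FPKM in both lines, and the red part makes up 155.3, 126.53 and 116.68 FPKM of the MuGDH64 bars against about 39 to 41 in GDH64.

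In total 9 of 34 members were called higher in MuGDH64 (2.2% of all tested genes were) and 5 lower (9.74% of all tested genes were). The median change of the members was 0.09, against -0.18 for all tested genes. Of the 9, 4 reached 1 FPKM only in MuGDH64 libraries, so that meeting the level rule already required a difference; of the 30 members with a library of at least 1 FPKM in each line, 5 were called higher and 5 lower. After quantile normalization 10 members were higher and 3 lower, where 4.43% and 5.17% of all tested genes were. The count of higher members fell to 5 without GDH64 library 1 and without any 1 of the 3 MuGDH64 libraries. In the latter case 4 or 5 of the 34 members no longer met the rule and were not tested. The count of lower members fell to 3 when library 1 or 2 of GDH64, or library 2 of MuGDH64, was left out. All 3 MuGDH64 values lay above all 3 GDH64 values for 11 members (5.68% of all tested genes) and below them for 6 (31.8%). The 11 include the 4 that reached 1 FPKM only in MuGDH64, for which the level rule itself fixed this separation.

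**Figure D3:**
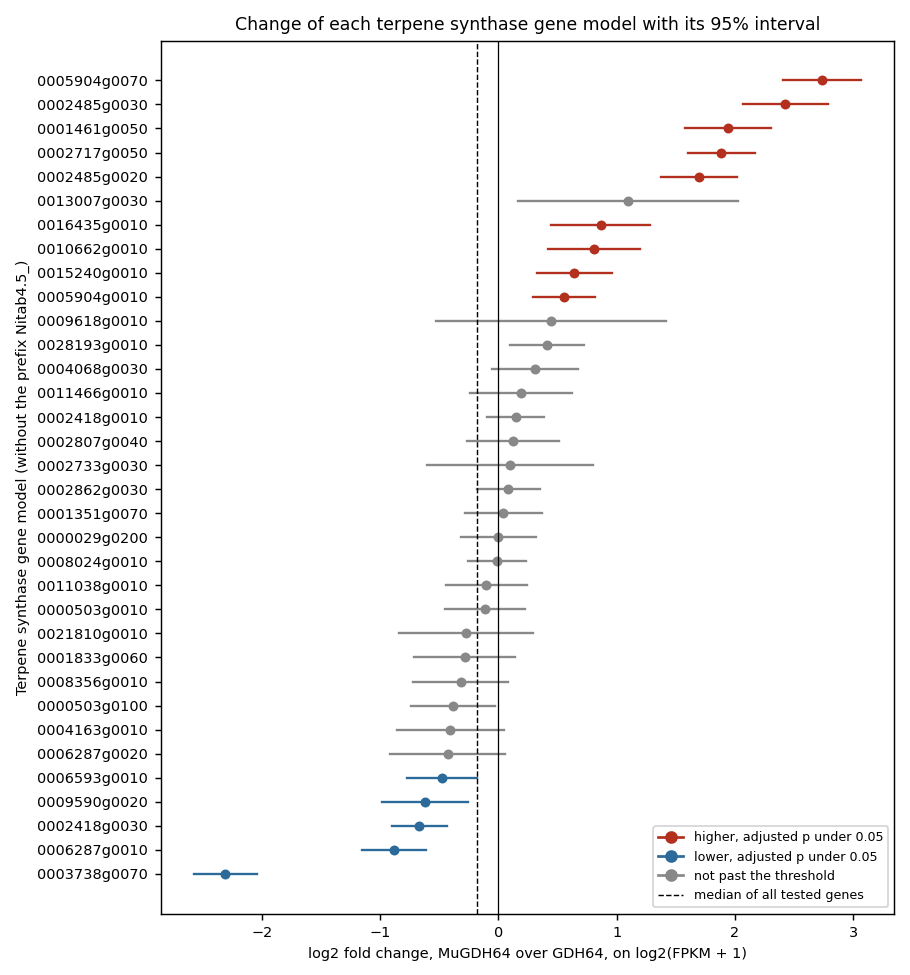
Log2 fold change of each member, MuGDH64 over GDH64 on log2(FPKM + 1), with its 95% interval from limma; colours mark calls and the dashed line is the median of all tested genes at -0.18. Members with a change above 1.5 are 5 in number and all are called, and Nitab4.5_0003738g0070 at -2.31 stands apart from the other lower members.

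The 4 members with the largest rise in log2 terms came from 4 scaffolds. Nitab4.5_0005904g0070, with both domains, had 6.18, 5.9 and 5.33 FPKM in GDH64 and 54.64, 42.67 and 37.19 FPKM in MuGDH64. All MuGDH64 values lay far above those of GDH64, a 7.73-fold difference of the means (change 2.74 ± 0.15 SE, limma adjusted p = 2.75e-05). By rank among the members it stood 9th, 9th and 11th in the GDH64 libraries, and it was 1st, 2nd and 2nd in MuGDH64. Nitab4.5_0002485g0030 had 1.73, 1.23 and 1.37 FPKM in GDH64 and 14.78, 11.65 and 10.19 FPKM in MuGDH64. The lines were widely apart here too, with means 8.46-fold higher in MuGDH64 (change 2.42 ± 0.16 SE, limma adjusted p = 8.69e-05). For Nitab4.5_0001461g0050 the values were 3.6, 2.15 and 2.44 FPKM in GDH64 and 14.69, 12.1 and 12.75 FPKM in MuGDH64. Its means differed 4.83-fold without overlap (change 1.94 ± 0.16 SE, limma adjusted p = 0.000323). Nitab4.5_0002717g0050 held 4.28, 4.23 and 4.83 FPKM in GDH64 and 22.13, 18.45 and 17.07 FPKM in MuGDH64, a 4.32-fold rise (change 1.89 ± 0.13 SE, limma adjusted p = 9.71e-05). Each of these 4 was called higher in all 14 other settings.

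Among the further members called higher, Nitab4.5_0005904g0010 was already abundant in GDH64, with 23.9, 23.04 and 22.71 FPKM against 40.52, 32.5 and 31.36 FPKM in MuGDH64. The means were 23.2 ± 0.614 and 34.8 ± 4.99 FPKM, and the change was smaller than that of the other member on the same scaffold (change 0.56 ± 0.12 SE, limma adjusted p = 0.0188). It missed the threshold without GDH64 library 1 or library 2 (highest adjusted p = 0.0544). The remaining 4 stood under 1 FPKM in every GDH64 library and met the level rule through MuGDH64 libraries only, which already required a difference. They could not be tested with any MuGDH64 library left out, nor with the filter of 5 FPKM. Of these Nitab4.5_0002485g0020 rose from 0.347 ± 0.0808 to 3.36 ± 0.207 FPKM (limma adjusted p = 0.000326) and was called in each of the 10 settings that could test it. Nitab4.5_0016435g0010 rose from 0.497 ± 0.215 to 1.72 ± 0.385 FPKM, Nitab4.5_0010662g0010 from 0.570 ± 0.221 to 1.74 ± 0.271 FPKM and Nitab4.5_0015240g0010 from 0.787 ± 0.0208 to 1.79 ± 0.0929 FPKM (limma adjusted p between 0.02 and 0.0221). These 3 missed the threshold without GDH64 library 1 (adjusted p up to 0.0616), and Nitab4.5_0015240g0010 also without GDH64 library 2. In 6 of the 9 members called higher, library 1 was the highest of the MuGDH64 libraries; it also had the largest summed FPKM of that line, and the part of this in the result was not tested.

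Nitab4.5_0003738g0070, with both domains, had the largest fall. It held 9.0, 9.05 and 8.96 FPKM in GDH64 and 0.97, 1.05 and 1.04 FPKM in MuGDH64. The replicates of each line were nearly equal and the means differed 8.83-fold (change -2.31 ± 0.12 SE, limma adjusted p = 1.99e-05). It ranked 8th among the members in each GDH64 library and 32nd, 32nd and 34th in MuGDH64. Its neighbour in identifier order, Nitab4.5_0003738g0060, is described as a photosystem II PsbQ protein and had 40.51, 39.02 and 39.31 FPKM in GDH64 and 41.29, 38.01 and 36.76 FPKM in MuGDH64. Within each library the terpene synthase stood at 0.227 ± 0.00491 of that neighbour in GDH64 and at 0.0265 ± 0.0026 in MuGDH64, a ratio that does not depend on the scaling of the library.

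Of the other members called lower, Nitab4.5_0006287g0010 had 5.28, 5.07 and 4.83 FPKM in GDH64 and 2.15, 2.34 and 2.36 FPKM in MuGDH64 (change -0.88 ± 0.12 SE, limma adjusted p = 0.0037). The model next to it, Nitab4.5_0006287g0020, had 4.77, 4.89 and 4.89 FPKM against 3.06, 2.28 and 5.16 FPKM and overlapped between the lines (limma adjusted p = 0.204). Nitab4.5_0002418g0030 had 18.07, 19.85 and 19.72 FPKM in GDH64 and 12.63, 11.25 and 11.34 FPKM in MuGDH64 (change -0.67 ± 0.10 SE, limma adjusted p = 0.00611). It lay above Nitab4.5_0002418g0010, the abundant member on its scaffold, in every GDH64 library and below it in every MuGDH64 library, with ratios of 1.20 ± 0.077 and 0.665 ± 0.11. Nitab4.5_0006287g0010 and Nitab4.5_0002418g0030 were called lower in every other setting that tested them. The last 2, Nitab4.5_0009590g0020, at 2.74 ± 0.284 against 1.45 ± 0.384 FPKM, and Nitab4.5_0006593g0010, at 12.8 ± 1.89 against 8.85 ± 0.609 FPKM, passed narrowly (limma adjusted p = 0.039 and 0.0476). After quantile normalization neither passed (adjusted p = 0.0943 and 0.164), and they were called in only 3 of 13 and 3 of 14 other settings.

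Among the 20 members not called, the widest spread was in weakly expressed models. Nitab4.5_0013007g0030, with the N-terminal domain alone, had 0.61, 0 and 1.78 FPKM in GDH64 and 3.33, 3.87 and 1.08 FPKM in MuGDH64, so the lines overlapped (limma adjusted p = 0.11). Nitab4.5_0028193g0010 had 4.92, 5.39 and 3.87 FPKM against 6.08, 6.85 and 6.8 FPKM. Its lines did not overlap, and it missed the threshold as deposited (limma adjusted p = 0.082) but passed after quantile normalization (limma adjusted p = 0.0228). All 9 members called higher carried both domains, as did 4 of the 5 called lower, but so did 26 of all 34 members. The metal-binding domain alone was named for 4 members, none of which was called. The N-terminal domain alone was also named for 4, of which 1 was called lower. With so few of these, a link between domains and calls was not tested.

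The identifiers place 6 of the 9 members called higher on 4 scaffolds that form 2 pairs with the same kinds of neighbour, taking the digits before the letter g as the scaffold and those after it as the order along it. On scaffolds 0005904 and 0002485, which hold 2 members each, the shared neighbours are a pentatricopeptide repeat protein, an OST-HTH and NYN domain protein and a RING/FYVE zinc finger protein. All 4 terpene synthases on this pair were called higher, while none of these 6 neighbours was called (limma adjusted p between 0.163 and 0.556). Scaffolds 0001461 and 0002717 share a NAC transcription factor family, a malate dehydrogenase and a cytochrome P450 beside the terpene synthase. A comparison of all 102 scaffolds with a terpene synthase row found 9 pairs that share at least 3 distinct domain texts among the other gene models, 3 of them with members on both scaffolds. In the third of these, scaffolds 0000029 and 0002862, the members did not pass the test. There Nitab4.5_0000029g0200 held 3.60 ± 0.212 and 3.63 ± 0.595 FPKM, and Nitab4.5_0002862g0030 held 4.80 ± 0.38 and 5.14 ± 0.221 FPKM.

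On scaffolds 0001461 and 0002717 the terpene synthase and the cytochrome P450 rose, and the malate dehydrogenase between them in identifier order was not called. The P450 Nitab4.5_0001461g0070 had 2.27, 2.3 and 2.03 FPKM in GDH64 and 5.48, 5.79 and 6.19 FPKM in MuGDH64. Its lines did not overlap (change 1.09 ± 0.12 SE, limma adjusted p = 0.00149). The P450 Nitab4.5_0002717g0030 had 0.31, 0.16 and 0.12 FPKM in GDH64 and 2.43, 2.01 and 1.51 FPKM in MuGDH64, and it reached 1 FPKM only in MuGDH64 (change 1.31 ± 0.18 SE, limma adjusted p = 0.00363). The malate dehydrogenase Nitab4.5_0001461g0060 had 81.16, 72.25 and 68.73 FPKM against 74.62, 71.12 and 69.23 FPKM (limma adjusted p = 0.773). For Nitab4.5_0002717g0040, the malate dehydrogenase of the other scaffold, the values were 123.61, 125.92 and 112.58 FPKM against 111.16, 111.65 and 96.31 FPKM (limma adjusted p = 0.228). Both P450 genes were called higher in every other setting that tested them, 14 and 10 settings in turn. Nitab4.5_0002717g0030 could not be tested with any MuGDH64 library left out, nor with the filter of 5 FPKM. Set against its own malate dehydrogenase within each library, the terpene synthase went from 0.0365 ± 0.00735 to 0.184 ± 0.0134 on scaffold 0001461 and from 0.037 ± 0.0051 to 0.181 ± 0.0172 on scaffold 0002717.

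**Figure D4:**
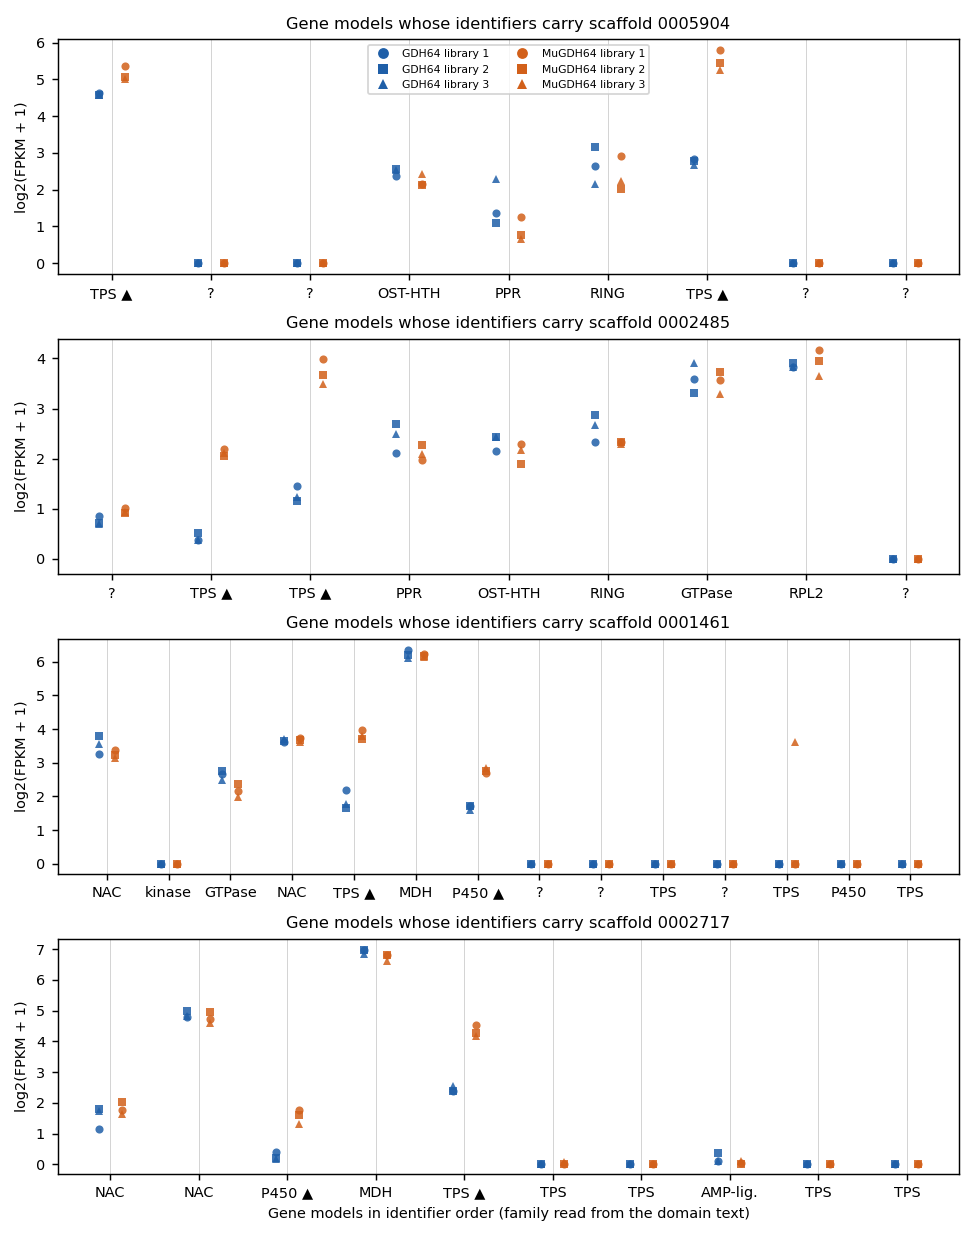
Level of every gene model on the 4 scaffolds with the largest rises, as log2(FPKM + 1) in each library (blue, GDH64; orange, MuGDH64), in identifier order; TPS is terpene synthase, P450 cytochrome P450, NAC a NAC transcription factor, MDH malate dehydrogenase, PPR a pentatricopeptide repeat protein, RING a RING/FYVE zinc finger, RPL2 a ribosomal L2 domain protein, AMP-lig. an AMP-binding ligase, and ? no described domain. Up triangles mark models called higher: the terpene synthases that are members and 2 cytochrome P450s carry one. The terpene synthase rows under the level rule carry none. Neither do the malate dehydrogenases, NAC factors and zinc fingers on the same scaffolds.

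Within 3 identifiers of the 14 called members lay 38 gene models, 9 of them terpene synthase rows. These 9 include Nitab4.5_0002485g0020 and Nitab4.5_0002485g0030, called members that neighbour each other. Of the 15 tested neighbours that are not terpene synthase rows 2 were called higher, both of them the P450 genes above. By limma 0 were called lower (1 was lower at an unadjusted p under 0.05). Of all tested genes 2.2% were called higher and 9.74% lower. The whole table had 14 P450 rows within 3 identifiers of a terpene synthase row. Of these, 10 were listed at 0 in every library and 2 met the level rule, the same 2 that were called higher. Nitab4.5_0002717g0030 met that rule through MuGDH64 libraries only, which already required a difference. Among all 212 tested P450 genes 21 were higher and 36 lower (32 and 20 after quantile normalization). On scaffolds 0001461 and 0002717 the terpene synthase rows that did not meet the level rule were listed at 0 in every library, apart from Nitab4.5_0002717g0060 and Nitab4.5_0001461g0120, both chosen after their values were seen. The former stood at 0.05 FPKM in MuGDH64 library 3 and the latter at 11.34 FPKM in the same library, and both were at 0 in the other 5 libraries.

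Levels of members on paired scaffolds were set against each other within each library. Nitab4.5_0005904g0070 stood at 4.09 ± 0.635 times the level of Nitab4.5_0002485g0030 in GDH64 and at 3.67 ± 0.0244 times in MuGDH64, and the ratios of the lines overlapped. The ratio of Nitab4.5_0002717g0050 to Nitab4.5_0001461g0050 was 1.71 ± 0.453 in GDH64 and 1.46 ± 0.102 in MuGDH64, again with overlap. Within scaffold 0005904, Nitab4.5_0005904g0070 went from 0.250 ± 0.0131 to 1.28 ± 0.0855 times the level of Nitab4.5_0005904g0010, without overlap. Within scaffold 0002485, Nitab4.5_0002485g0030 stood at 4.38 ± 1.49 times Nitab4.5_0002485g0020 in GDH64 and 3.62 ± 0.531 times in MuGDH64, with overlap. Across that pair, Nitab4.5_0005904g0010 and Nitab4.5_0002485g0020 had unlike changes of 0.56 and 1.69. Ratios thus held or moved both within and between scaffolds. Tobacco is an allotetraploid, and the counting of reads shared by near-identical copies is not given in the sources used here, so values of close copies are uncertain.

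Enzymes that feed or use the same precursors were tested in the same fit. Of all tested genes 2.2% were called higher and 9.74% lower, and 4.43% and 5.17% after quantile normalization. In the mevalonate route, which supplies cytosolic isoprene units, 1 of 32 tested genes was called higher and 0 lower by limma (3 and 3 at an unadjusted p under 0.05), against 3 higher and 0 lower after quantile normalization. The one called as deposited was Nitab4.5_0000235g0130, a hydroxymethylglutaryl-CoA reductase, the enzyme that limits the rate of that route. It had 13.03, 13.78 and 15.12 FPKM in GDH64 and 32.03, 27.77 and 26.44 FPKM in MuGDH64, without overlap (limma adjusted p = 0.00158). In the plastid route list, which also held the isopentenyl-diphosphate isomerases, 2 of 23 genes were called higher and 1 lower. After quantile normalization 3 were higher and 0 lower. Those called higher as deposited were both such isomerases, which interconvert the isoprene units and are not particular to the plastid route. Nitab4.5_0000971g0070 had 5.98, 6.13 and 3.77 FPKM in GDH64 and 11.92, 8.94 and 9.09 FPKM in MuGDH64, without overlap (limma adjusted p = 0.0245, and 0.0106 after quantile normalization). Nitab4.5_0003099g0070 had 10.66, 10.84 and 11.47 FPKM against 17.93, 14.67 and 14.88 FPKM, also without overlap (limma adjusted p = 0.0277, and 0.00846 after quantile normalization). They were called in 11 and 9 of 14 other settings in turn. The lower one, Nitab4.5_0003546g0010, a deoxyxylulose-phosphate synthase, held 8.23 ± 0.346 FPKM in GDH64 and 4.98 ± 0.61 in MuGDH64 (limma adjusted p = 0.0145, and 0.0569 after quantile normalization).

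Prenyl chain synthases were taken by polyprenyl synthetase domain text, and only some of them make substrates of terpene synthases. They had 3 of 15 called higher and 2 lower, against 6 and 2 after quantile normalization. Among them Nitab4.5_0003328g0080 rose from 6.43 ± 0.424 to 11.5 ± 0.80 FPKM (limma adjusted p = 0.00549) and was called in all 14 other settings. Nitab4.5_0001140g0030, described as a solanesyl diphosphate synthase, rose from 16.1 ± 0.48 to 23.5 ± 1.81 FPKM (limma adjusted p = 0.0149) and passed in 12 of 14 other settings. Nitab4.5_0004294g0030 rose from 0.840 ± 0.0985 to 2.28 ± 0.40 FPKM and reached 1 FPKM only in MuGDH64 (limma adjusted p = 0.0128). Squalene and phytoene synthases, which draw on the same precursors, had 0 of 7 called in either direction by limma (1 higher and 1 lower at an unadjusted p under 0.05), and 1 higher after quantile normalization. Squalene cyclases, which contain the toroid fold too, had 2 of 6 called lower and 0 higher by limma (3 and 0 at an unadjusted p under 0.05), against 2 and 0 after quantile normalization. The larger fall was that of Nitab4.5_0000299g0280, from 4.03 ± 0.471 to 1.68 ± 0.29 FPKM (limma adjusted p = 0.00762). ABC transporters were taken by domain text of the ABC-2 type or of the pleiotropic drug type. This set is wider than the pleiotropic drug type, a class that includes terpenoid exporters. It had 8 of 34 called lower and 0 higher by limma (16 and 0 at an unadjusted p under 0.05), against 5 and 0 after quantile normalization. Median changes were -0.09 for the mevalonate route, -0.08 for the plastid route list, 0.16 for the prenyl chain synthases and -0.05 for the squalene and phytoene synthases. They were -0.35 for the squalene cyclases, -0.13 for the P450 genes and -0.38 for the transporters, against -0.18 for all tested genes.

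Families with known roles in the epidermis and its hairs had more members called lower than higher in MuGDH64, as did all tested genes (2.2% higher and 9.74% lower, and 4.43% and 5.17% after quantile normalization). Homeobox proteins with a START domain, some of which regulate epidermis and trichomes, summed to between 91.5 and 106 FPKM in GDH64 and between 61.8 and 73.4 in MuGDH64, with 1 of 21 called higher and 7 lower (1 and 6 after quantile normalization). The summed level of 3-ketoacyl-CoA synthases, which extend fatty acids for wax, lay between 351 and 382 FPKM in GDH64 and between 202 and 242 in MuGDH64, with 0 of 20 higher and 11 lower by limma (0 and 11 at an unadjusted p under 0.05, and 0 and 8 after quantile normalization). Plant lipid transfer proteins summed to between 3445 and 4548 FPKM in GDH64 and between 3208 and 3785 in MuGDH64, with 5 of 56 higher and 12 lower, and 6 and 8 after quantile normalization. In every library 3 of 36, 14 of 47 and 106 of 205 rows of these lists were at 0. For other tissues, 46 tested proteins with pollen allergen or Ole e 1 domain text had 2 higher and 8 lower (4 and 6 after quantile normalization). Expansins also carry pollen allergen text, so this list is not one of pollen proteins alone. The 5 tested berberine-like proteins, a family with a root nicotine enzyme, had 0 called by limma and 0 at an unadjusted p under 0.05. Among MADS-box proteins, a family of flower regulators, 2 of 41 were higher and 7 lower, against 4 and 3 after quantile normalization. These are protein families, none of them specific to a cell type, and their part in the terpene synthase result was not tested.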

How the data were processed

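RNA was sequenced from leaf, with 3 libraries of GDH64 and 3 of MuGDH64, by TruSeq paired-end sequencing per the labels' protocols. TopHat2 and Cufflinks are named in the submitters' processing notes, without versions or roles. Neither a genome build nor an annotation is given in the sources used here. The deposited values were taken as FPKM by inference: the file header names no unit, values are not whole, and Cufflinks reports FPKM. The depth of the libraries is unknown, so counting errors and depth limits could not be given. Library columns were matched to samples by library name. The deposited means of each line equal the means of its library columns and were not used.

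Tests used limma 3.58.1 (R 4.3.3) with the mean-variance trend, line as the only term and p values for either direction, on log2(FPKM + 1), a scale that understates changes of weak genes. Tables and plots used Python 3.11.15, pandas 2.3.3, numpy 2.4.6 and matplotlib 3.10.9. The procedure was tested on simulated data. The members, lists and neighbour comparisons were chosen with earlier results of these data known. Genes named are all called members, the 10 most abundant, those at the edge of the level rule, called or terpene-related neighbours within 3 identifiers, and up to 3 called genes of each pathway list; the other members, the scaffold pairs and the within-library ratios were picked after values were seen. No identifier matched the RefSeq gene table, so no sequence or position is given. Libraries of the same number had Pearson's r of the deviations from the line means, across genes, of 0.0148, 0.0131 and 0.0512. Those of unlike numbers ran from -0.0459 to 0.0281. These values cannot show that pairing is absent. The numbers were not taken as pairs because the labels do not say that they mark any. Alternatives were 3 other scalings, a pseudocount of 0.1, no filter, a filter of 5 FPKM, no trend, a block for the library number, and each library left out.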

Additional observations from a re-analysis of the deposited data

How the results depend on the processing

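Of the 14 members called as deposited, 8 were called in every setting that could test them, and the other 6 lost the call in at least 1. None of the 14 changed direction. Among the 8, Nitab4.5_0002485g0020 could not be tested with any MuGDH64 library left out. The number of members higher, 9, was 5 with the filter of 5 FPKM, which tested 14 members, and ran from 5 to 10 when 1 library was left out. The number lower, 5, was 3 with that filter, after median-centring, after quantile normalization, after rescaling to a common sum, without the filter and with the library number as a block, and ran from 3 to 4 when 1 library was left out. With that block 712 genes of all tested were higher and 3279 lower, and 9 members higher. The labels do not say that the numbers mark pairs. Over all tested genes, the number higher, 712, was 1940 after median-centring, 1433 after quantile normalization and 1285 after rescaling, and ran from 348 to 650 without 1 library. The number lower, 3151, was 1384 after median-centring, 1671 after quantile normalization and 1784 without the filter, and ran from 1345 to 2491 without 1 library. Nitab4.5_0008024g0010, near no change, turned positive after median-centring (0.19), quantile normalization (0.09006) and rescaling (0.11), and ran from -0.106 to 0.0504 when 1 library was left out, never past the threshold. In the same way Nitab4.5_0001351g0070 ran from -0.0636 to 0.147 and Nitab4.5_0002807g0040 from -0.0234 to 0.224, neither past the threshold. Why these counts moved with the scaling was not tested. Without the filter, 1 of the 50 weaker models, Nitab4.5_0006456g0040, was called lower (adjusted p = 0.0442). The unknown depth limits what can be said of models under 1 FPKM.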
